A study of Mus musculus with 4 samples.

Results

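The INK4 inhibitors, the D cyclins, their kinases and the RB family proteins were examined as 10 genes taken by name from the 24346 gene symbols of the series, and all 10 were found: *Cdkn2a*, *Cdkn2b* and *Cdkn2c*, *Ccnd1*, *Ccnd2* and *Ccnd3*, *Cdk4* and *Cdk6*, and *Rb1* and *Rbl1*. RNA was measured in cells grown from the hair follicle stem cells (HFSCs) of C3H/HeN mice, with 2 libraries of cells after 10 passages (10p-HFSCs) and 2 of cells after 48 passages (48p-HFSCs). The cells of both groups had been sorted as CD49f+ CD34+ epithelial cells from the dorsal skin of 4-week-old mice and kept in serum-free M-CnT medium with 1 passage a week, and neither group is labelled with a treatment or genetic change. The study followed such cultures to learn how long passage changes the cells, and passage number is what separates the groups. Nothing states that the libraries of a group came from separate cultures or animals, so p-values rest on the spread between these libraries, which may be technical.

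D-type cyclins bind CDK4 and CDK6, and the active kinases phosphorylate the RB family proteins, which otherwise hold E2F transcription factors in check and keep a cell from entering S phase. The INK4 proteins bind CDK4 and CDK6 and keep the D cyclins from activating them. In cultured epithelial cells the *Cdkn2a* and *Cdkn2b* locus is known for its part in the arrest that ends serial passage, and D cyclins are known as the step at which growth factors reach the cell cycle.

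Values are FPKM, fragment numbers divided by the length of the exons and by the mapped total of a library, so levels can be compared between genes, and differences are 48p minus 10p on the log2(FPKM + 1) scale with their standard error (SE). A gene was called where limma gave an adjusted p-value under 0.05 and a difference of 2-fold or more, among the 11018 genes that reached an FPKM of 1 in 2 or more libraries. The limma fit draws the variance of each gene toward a trend over all genes tested, so an SE can exceed the gene's own replicate spread. Replicates correlated at r = 0.981 (10p) and 0.950 (48p) across these genes and libraries of different groups at 0.789 to 0.837. Replicate 2 of 48p-HFSCs had the lowest relative depth, 46.7% of that of replicate 1 of 10p-HFSCs. Of the 6 basal keratinocyte markers *Itga6* and *Itgb4* were called higher in 48p-HFSCs, *Krt5* and *Krt14* were higher in both 48p libraries but not called, and *Trp63* and *Col17a1* overlapped between groups. *Krt5* stood at 1805 and 1473 in the 10p and at 8156 and 5120 in the 48p libraries. Of the 6 stem cell markers, *Cd34*, *Lhx2*, *Lgr5* and *Tcf7l1* stayed at or below 0.234 in all 4 libraries. *Sox9* was called lower in 48p-HFSCs, from 45.6 and 44.2 to 20.2 and 8.31 (difference -1.71, limma adjusted p = 0.0389). By qRT-PCR, the study reported that *Sox9* and *Lhx2* rose in the long-passaged cells and that *Cd34* was maintained. It also reported that most of these cells were positive for the CD34 protein. The FPKM of *Sox9* thus went the other way, and those of *Lhx2* and *Cd34* were very low. The reason for this was not tested. *Krt15* overlapped between groups, with 136 and 82.6 in the 10p and 425 and 18.8 in the 48p libraries.

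Of the 10 genes, *Cdkn2b* alone was called, and it was higher in 48p-HFSCs. Over all genes tested, 10.8% were called higher and 9.15% lower, together 19.9%, so 1 of 10 is no more than the background share. With no fold limit 1 of the 10 and 20.6% of all genes had an adjusted p-value under 0.05. Raw p-values were under 0.05 for 4 of the 10 genes (*Cdkn2a*, *Cdkn2b*, *Cdkn2c* and *Rbl1*) and for 37.4% of all genes. The libraries of the groups did not overlap for 7 of the 10, with 48p-HFSCs higher for 5 and lower for 2, beside 31.7% and 34.3% of all genes. The median difference of the 10 was 0.39, and that of all genes was -0.03. With 2 libraries a group, an exact two-sided permutation test of a single gene cannot go below p = 0.333, and a gene that was not called may still differ.

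**Figure D1:**
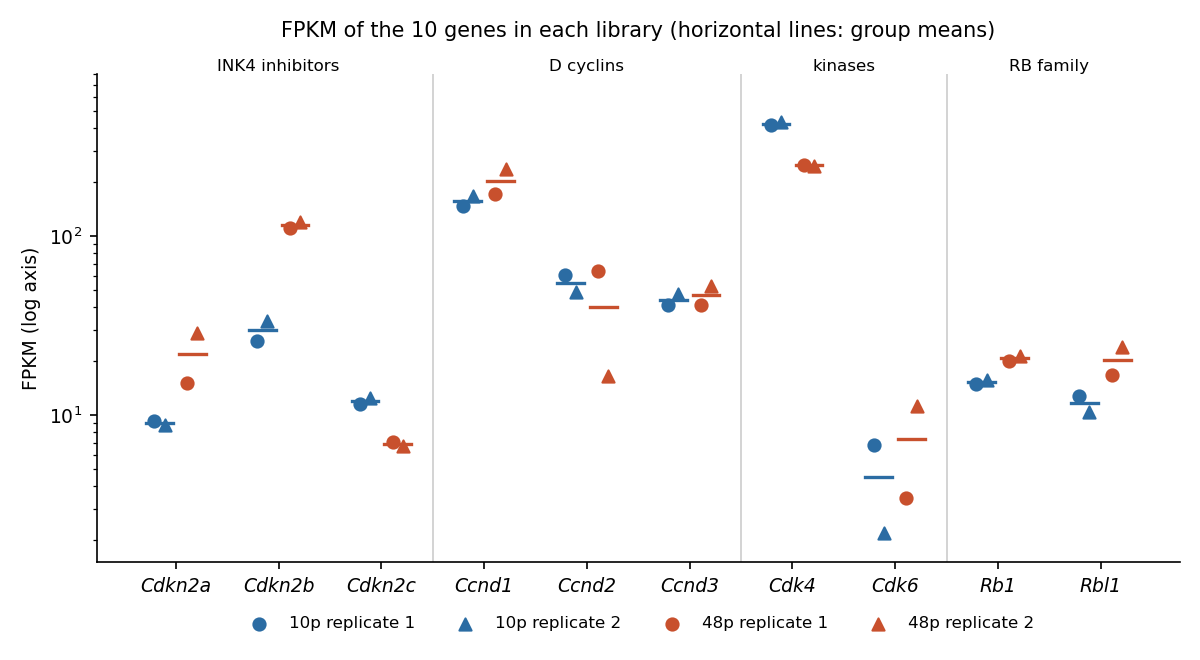
FPKM of the 10 genes (vertical log axis) in each of the 4 libraries, grouped by role, with blue for 10p-HFSCs, orange for 48p-HFSCs, circles for replicate 1, triangles for replicate 2 and horizontal lines for group means. *Cdkn2b* moves from 26.0 and 33.4 to 110.1 and 119, *Cdk4* is the highest gene in every library, and *Ccnd2* and *Cdk6* spread widely between replicates.

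The INK4 genes carried the clearest differences. *Cdkn2b* encodes p15Ink4b, known as the INK4 inhibitor that TGF-b induces in keratinocytes, and its FPKM was 26.0 and 33.4 in the 10p libraries, replicate 1 first, and 110.1 and 119 in the 48p libraries. Both 48p libraries thus lay far above both 10p libraries, and the replicates of each group lay close together. *Cdkn2b* rose 3.86-fold in mean FPKM, from 29.7 ± 5.26 to 114.8 ± 6.53 (SD, n = 2 each), with a log2 difference of 1.92 (SE 0.27, limma adjusted p = 0.00648). In 10p-HFSCs it was higher than 74.69% of the genes tested, and in 48p-HFSCs than 92.06%. The call was lost when replicate 1 or replicate 2 of 10p-HFSCs was left out (adjusted p = 0.185 and 0.118), at differences of 1.75 and 2.10, fits in which 35 and 36 genes were called higher in all.

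*Cdkn2a*, the neighbouring gene, encodes p16Ink4a and, from a second start and another reading frame, p19Arf, which protects p53 from MDM2. Its FPKM was 9.28 and 8.83 in the 10p and 15.2 and 28.6 in the 48p libraries. The 48p libraries were both the higher ones, but they differed from each other by 1.89-fold. The difference of 1.12 (SE 0.35) had a limma adjusted p-value of 0.0758 and was not called. It was called in 3 of the 14 other fits, among them quantile normalization (adjusted p = 0.0487) and the fit without replicate 1 of 48p-HFSCs (1.56, adjusted p = 0.0184), and it was 0.56 once values were corrected for transcript length and GC content. The deposited FPKM give 1 value for the gene, so the parts of p16Ink4a and p19Arf cannot be told apart.

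*Cdkn2a* lies at chr4:89274471-89294653 and *Cdkn2b* at chr4:89306299-89311039, both on the minus strand of mm10 (the GRCm38 assembly), with 11.6 kb between them. The 250 bases before their starts are shown because these genes are neighbours whose libraries lay in the same order between groups, and the *Cdkn2b* window belongs to the gene that was called. Sequences are from RefSeq on GRCm38.p6, are written 5′ to 3′ on the gene's strand, and have in capitals each match to an E box (CACGTG), an E2F site (TTTCGCGC or TTTGGCGC) or a GC box (GGGCGG), on either strand. Of 32851 windows of this length in the RefSeq table, 6.02% held the E box, 0.654% an E2F site and 32.7% the GC box. The windows are at chr4:89311033-89311282 for *Cdkn2b*, and at chr4:89294620-89294869 and chr4:89282193-89282442 for the upstream and downstream starts of *Cdkn2a*, all on the minus strand.
Cdkn2b: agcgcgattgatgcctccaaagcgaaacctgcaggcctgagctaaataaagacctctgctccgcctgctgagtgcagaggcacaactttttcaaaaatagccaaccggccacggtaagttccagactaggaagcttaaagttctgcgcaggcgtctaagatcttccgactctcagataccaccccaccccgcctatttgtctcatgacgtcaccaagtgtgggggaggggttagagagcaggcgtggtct
Cdkn2a upstream start: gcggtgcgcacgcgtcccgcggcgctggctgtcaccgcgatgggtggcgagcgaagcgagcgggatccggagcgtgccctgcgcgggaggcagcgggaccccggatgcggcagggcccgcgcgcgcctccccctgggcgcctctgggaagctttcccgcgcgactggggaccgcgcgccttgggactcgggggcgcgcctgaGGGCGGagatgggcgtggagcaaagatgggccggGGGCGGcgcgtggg
Cdkn2a downstream start: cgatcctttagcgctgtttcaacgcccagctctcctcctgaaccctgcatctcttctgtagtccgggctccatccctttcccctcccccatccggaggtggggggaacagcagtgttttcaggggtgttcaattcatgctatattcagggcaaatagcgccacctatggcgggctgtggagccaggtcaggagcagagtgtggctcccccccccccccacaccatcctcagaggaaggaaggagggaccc
The upstream *Cdkn2a* window held 2 GC boxes, starting 48 and 14 bases before the start, and the windows of *Cdkn2b* and of the downstream *Cdkn2a* start held none of these letters.

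*Cdkn2c* encodes p18Ink4c and lies further along the chromosome, at chr4:109660876-109667189. Its FPKM was 11.5 and 12.4 in the 10p and 7.06 and 6.70 in the 48p libraries. Here the 48p libraries were the lower ones, and the replicates lay within 1.07-fold and 1.05-fold of each other. The difference of -0.71 (SE 0.26) was not called (limma adjusted p = 0.104).

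The INK4 family has one more gene, *Cdkn2d* (p19Ink4d), which is not among the 10 and which stood at 22.1 and 26.7, then at 25.0 and 65.9. As a share of the FPKM summed over all 4 INK4 genes, *Cdkn2b* made up 37.8 and 41.1% in the 10p and 70.0 and 54.1% in the 48p libraries. *Cdkn2c* made up 16.7 and 15.2%, then 4.49 and 3.04%. *Cdkn2d* made up 32.1 and 32.8%, then 15.9 and 29.9%, and the *Cdkn2a* share, 9.64 to 13.5%, overlapped between groups. *Cdkn2b* thus had the largest share in each library and took most of the INK4 RNA in both 48p libraries, where *Cdkn2c* had the smallest. Over *Cdkn2a*, *Cdkn2b* and *Cdkn2c* alone, the *Cdkn2b* share was 55.6 and 61.2%, then 83.2 and 77.2%.

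The 3 D cyclins, which bind and activate CDK4 and CDK6, gave no call. *Ccnd1*, the cyclin most tied to growth factor signals, was the second highest of the 10 genes, with 147 and 167 in the 10p and 172 and 236 in the 48p libraries. The lowest 48p value was just above the highest 10p value. Its difference was 0.36 (SE 0.33, limma adjusted p = 0.461), and it turned to -0.22 after rescaling to TPM and to -0.06 after quantile normalization.

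*Ccnd2* stood at 60.6 and 48.6 in the 10p and at 63.5 and 16.4 in the 48p libraries. Replicate 1 of 48p-HFSCs was the highest of the 4 libraries and replicate 2 the lowest, a 3.87-fold gap within the group. The difference was -0.72 (SE 0.61, limma adjusted p = 0.422). It was -1.67 (adjusted p = 0.0193) without replicate 1 of 48p-HFSCs and 0.22 (adjusted p = 0.527) without replicate 2, so 1 library set its direction.

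*Ccnd3* stood at 40.9 and 47.3 in the 10p and at 41.2 and 52.7 in the 48p libraries. The groups overlapped, with a difference of 0.08 (SE 0.27, limma adjusted p = 0.844). *Bysl*, which overlaps *Ccnd3* on the opposite strand, ranged from 14.3 to 24.0, and the strand setting of the authors' quantification is not given in the sources used here.

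Summed over the 3 genes, D cyclin FPKM was 248 and 263 in the 10p and 276 and 305 in the 48p libraries. The *Ccnd1* share of that sum was 59.1 and 63.6%, then 62.1 and 77.3%. The *Ccnd2* share was 24.4 and 18.5%, then 23.0 and 5.39%. *Ccnd1* was thus the main D cyclin RNA in each library, and in replicate 2 of 48p-HFSCs *Ccnd3*, with 17.3%, stood above *Ccnd2*.

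**Figure D2:**
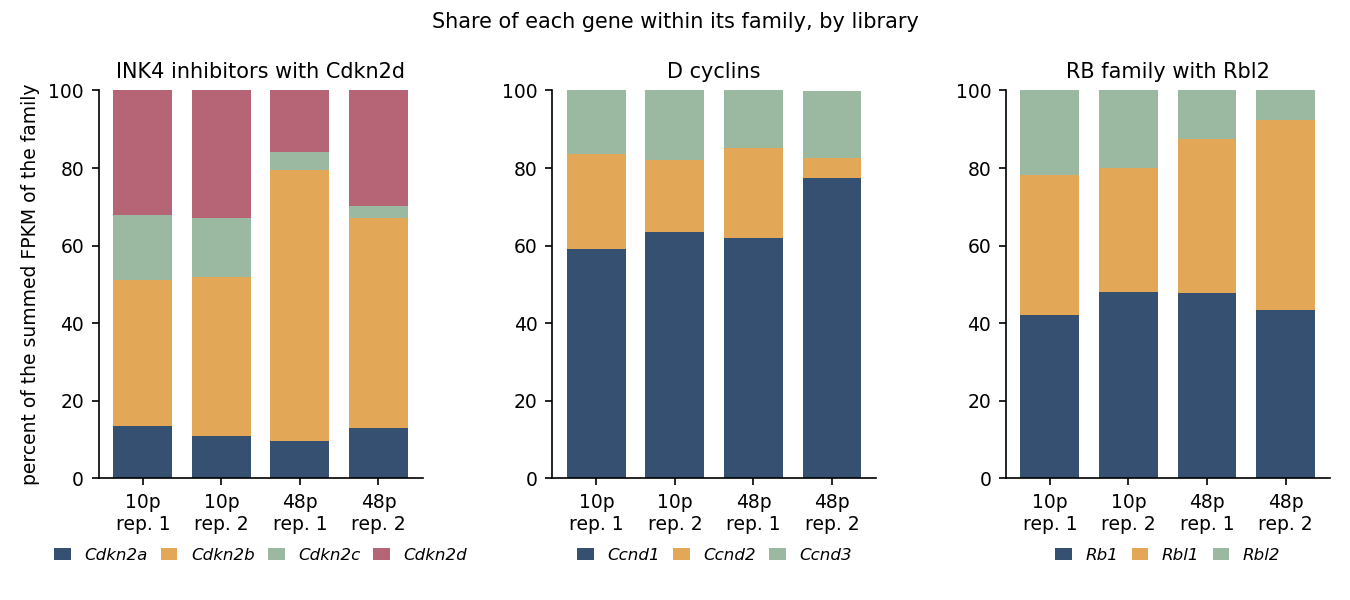
Share of the summed FPKM (percent, vertical axis) that each gene takes within the 4 INK4 genes (*Cdkn2d* included), the D cyclins and the RB family with *Rbl2*, as stacked bars from 0 to 100, 1 bar for each library. The *Cdkn2b* share goes from 37.8 and 41.1% in 10p-HFSCs to 70.0 and 54.1% in 48p-HFSCs, and the *Ccnd2* share of replicate 2 of 48p-HFSCs is 5.39%.

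*Cdk4* was the highest of the 10 genes in every library and lay above 98.28% of the genes tested in 10p-HFSCs and 95.94% in 48p-HFSCs. Its FPKM was 414 and 433 in the 10p and 249.6 and 247 in the 48p libraries. The replicates of each group lay within 1.04-fold and 1.01-fold of each other, and both 48p libraries were lower. The mean was 423 ± 12.9 in 10p-HFSCs and 248 ± 2.09 in 48p-HFSCs (SD, n = 2 each), a 1.71-fold ratio. The difference of -0.77 (SE 0.35) was not called (limma adjusted p = 0.170). It was called lower after rescaling to TPM (-1.35, adjusted p = 0.0173), after quantile normalization (-1.27, adjusted p = 0.0277) and after a correction for length and GC content (-1.02, adjusted p = 0.0485). Rescaling to TPM also moved the median difference of all genes by -0.52.

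*Cdk4* lies at chr10:127063534-127067920 on the plus strand, and its RefSeq window at chr10:127063285-127063534 is shown as that of the most highly expressed of the 10 genes.
Cdk4: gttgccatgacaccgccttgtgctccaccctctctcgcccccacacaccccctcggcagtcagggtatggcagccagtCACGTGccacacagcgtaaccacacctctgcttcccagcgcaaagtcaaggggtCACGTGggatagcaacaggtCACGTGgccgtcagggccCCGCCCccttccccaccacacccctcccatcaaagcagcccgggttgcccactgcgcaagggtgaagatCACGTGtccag
It held 4 E boxes, the letters that MYC and related factors bind, starting 172, 118, 98 and 11 bases before the start, and 1 GC box at 80 bases. Of all windows, 0.0213% (7 windows) held 4 or more E boxes. The match is of letters alone and is no measure of binding. *Tspan31*, which overlaps *Cdk4* on the opposite strand, stood at 98.8 and 116 in the 10p and at 149 and 219 in the 48p libraries, the other order of groups.

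*Cdk6*, the other kinase of the D cyclins, was the lowest of the 10 genes in 10p-HFSCs, with 6.81 and 2.20, and stood at 3.43 and 11.2 in 48p-HFSCs. Replicates differed by 3.10-fold and 3.25-fold, more than the groups did, and the groups overlapped (difference 0.56, SE 0.62, limma adjusted p = 0.551). *Cdk6* made up 0.506 to 4.33% of the kinase FPKM, so nearly all of the kinase RNA was *Cdk4* in each library.

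Set against each other within a library, the FPKM summed over all 4 INK4 genes was 0.164 and 0.187 times the summed kinase FPKM in the 10p libraries, and 0.622 and 0.856 times in the 48p libraries. The mean ratio was 0.175 ± 0.0166 and 0.739 ± 0.165 (SD, n = 2 each), 4.22-fold apart, and the lowest 48p library was 3.33-fold above the highest 10p library. With *Cdkn2a*, *Cdkn2b* and *Cdkn2c* alone the ratios were 0.111 and 0.126, then 0.523 and 0.600, which is 4.75-fold. D cyclin FPKM was 0.590 and 0.606 times the kinase FPKM in the 10p libraries, and 1.09 and 1.18 times in the 48p libraries. These ratios were chosen after the values were seen and are given with no test. A factor common to a library leaves them as they are, and after quantile normalization the 4-gene ratio was 5.53-fold apart. They are ratios of RNA and not of protein.

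**Figure D3:**
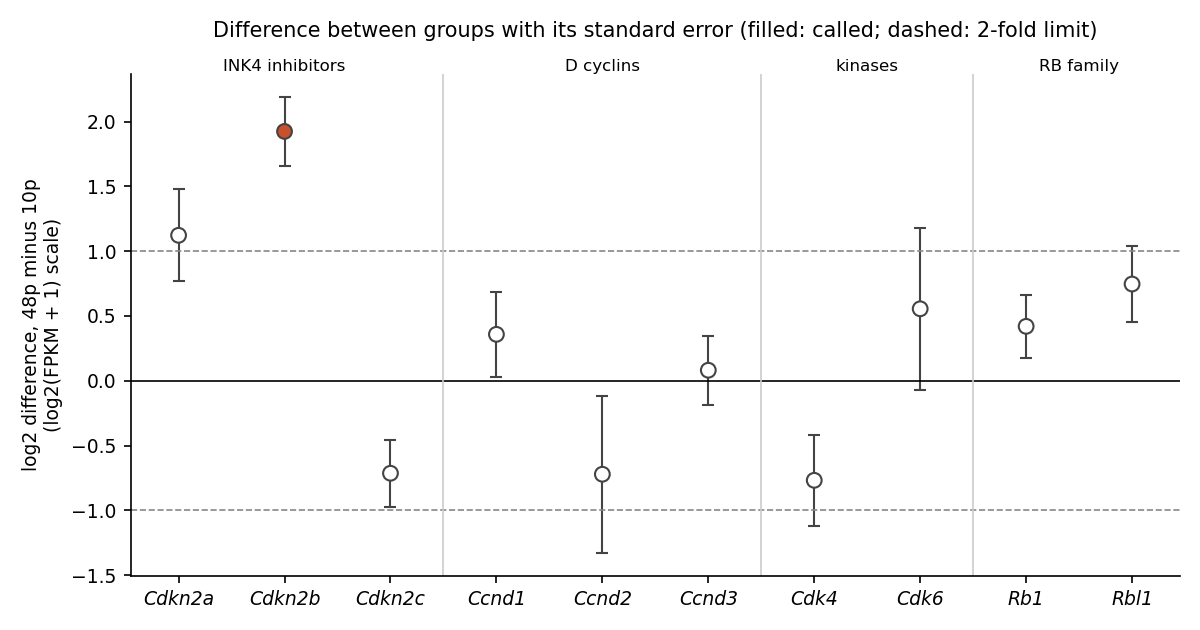
Difference of each of the 10 genes (48p minus 10p on the log2(FPKM + 1) scale, vertical axis) with its standard error as bars, a filled point where the gene was called, and dashed lines at the 2-fold limit. *Cdkn2b* at 1.92 is the one filled point, and *Cdkn2c*, *Ccnd2* and *Cdk4* lie below 0.

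*Rb1*, the retinoblastoma gene, stood at 14.9 and 15.6 in the 10p and at 20.1 and 21.4 in the 48p libraries. Both 48p libraries were higher and the replicates lay within 1.06-fold, but the difference was small, 0.42 (SE 0.24), and was not called (limma adjusted p = 0.256). It was -0.13 after rescaling to TPM. *Rb1* lies on chromosome 14, whose 365 genes had a median of 0.47 relative to all genes, and the part of this in its value was not tested. *Rcbtb2* and *Lpar6* overlap *Rb1* on the opposite strand, and *Rcbtb2* stood at 8.41 and 6.02 in the 10p and at 0.555 and 0.328 in the 48p libraries.

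*Rbl1* encodes p107, an RB relative that is best known for binding E2F4 and that is itself transcribed under E2F control. It stood at 12.8 and 10.4 in the 10p and at 16.8 and 23.9 in the 48p libraries. The 48p libraries were both higher, with a difference of 0.75 (SE 0.29) that was not called (limma adjusted p = 0.125). The window before its start, chr2:157204535-157204784 on the minus strand, is shown because it alone held an E2F site. This was among the windows of the 7 genes that had one.
Rbl1: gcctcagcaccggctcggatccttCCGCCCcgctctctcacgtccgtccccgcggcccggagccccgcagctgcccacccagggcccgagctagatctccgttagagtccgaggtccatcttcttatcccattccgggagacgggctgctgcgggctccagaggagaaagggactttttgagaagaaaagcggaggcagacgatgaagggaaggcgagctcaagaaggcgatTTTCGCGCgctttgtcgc
The E2F letters started 18 bases before the start, and a GC box lay at 226 bases. RefSeq windows matched 7 of the 10 genes. The source used held none for *Ccnd1*, *Ccnd2* and *Rb1*, which were thus not searched for these sites.

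*Rbl2*, which encodes p130, the RB relative of resting cells, had the opposite order: 7.66 and 6.51 in the 10p and 5.26 and 3.78 in the 48p libraries (difference -0.56, SE 0.29, limma adjusted p = 0.215). Its share of the summed FPKM of *Rb1*, *Rbl1* and *Rbl2* was 21.7 and 20.0%, then 12.5 and 7.71%. The *Rbl1* share was 36.3 and 32.0%, then 39.8 and 48.8%, and the *Rb1* share overlapped between groups at 42.0 to 48.0%. *Rbl2* lies on chromosome 8, whose 565 genes had a median of -0.57 relative to all genes, and the part of this in its value was not tested.

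Ordered by level, the 10p-HFSCs ran *Cdk4*, *Ccnd1*, *Ccnd2*, *Ccnd3*, *Cdkn2b*, *Rb1*, *Cdkn2c*, *Rbl1*, *Cdkn2a* and *Cdk6*, and of these neighbours the libraries of *Cdkn2c* and *Rbl1* overlapped. In 48p-HFSCs the order was *Cdk4*, *Ccnd1*, *Cdkn2b*, *Ccnd3*, *Ccnd2*, *Cdkn2a*, *Rb1*, *Rbl1*, *Cdk6* and *Cdkn2c*. There the neighbours from *Ccnd3* to *Rbl1* overlapped in turn, as did *Cdk6* and *Cdkn2c*. *Cdkn2b* went from the fifth to the third place, and *Cdkn2c* from the seventh to the last.

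Of the other CDK inhibitors, none of the 3 tested of 4 was called, beside 19.9% of all genes. *Cdkn1a* encodes p21, the inhibitor that p53 induces, and stood at 91.4 and 109.7 in the 10p and at 186 and 265 in the 48p libraries (difference 1.14, limma adjusted p = 0.0595). *Cdkn1b* encodes p27 and stood at 36.8 and 35.2, then at 23.5 and 18.2 (-0.77, adjusted p = 0.0859). *Cdkn2d* overlapped between groups (0.72, adjusted p = 0.305).

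Of 16 tested of 18 regulators of the INK4 locus, 4 were called lower and 1 higher, beside 9.15% and 10.8% of all genes. *Bmi1*, a Polycomb gene known for keeping the locus silent, stood at 34.7 and 33.5 in the 10p and at 16.3 and 9.11 in the 48p libraries (difference -1.41, limma adjusted p = 0.0340). *Cbx7*, a second Polycomb gene, stood at 4.54 and 5.51, then at 1.47 and 1.79 (-1.19, adjusted p = 0.0287). *Hmga2*, known for lowering INK4 and ARF levels in stem cells, stood at 60.4 and 59.2, then at 14.8 and 11.5 (-2.11, adjusted p = 0.00417). In each of these genes both 48p libraries were below both 10p libraries, and the calls were made in 10, 8 and 12 of the 14 other fits.

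*Ets1*, an activator of p16Ink4a, rose from 1.96 and 1.48 to 14.5 and 6.97 (difference 2.04, limma adjusted p = 0.0188). *Tcf3*, whose E proteins activate INK4 and p21 genes, was the fourth called lower (-1.01, adjusted p = 0.0356) and was named after its values were seen. Known silencers and known activators of the locus thus both stand among the genes called lower. *Ezh2* and *Suz12*, of the other Polycomb complex, were lower in both 48p libraries, with differences of -0.54 and -0.41 that were not called. *Id1*, also of this list, had the other order, with 73.7 and 95.5, then 150 and 184 (0.98, limma adjusted p = 0.0721). *Cbx8*, *Pcgf2* and *Rnf2* overlapped between groups. All of these uncalled genes were named after their values were seen. Of the 16 tested means, 13 were lower and 3 higher in 48p-HFSCs.

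Near the locus, 1 of 5 tested of 9 neighbours was called, lower, beside 9.15% called lower among all genes. *Mtap*, a methionine salvage enzyme gene 93.4 kb away, stood at 127 and 152 in the 10p and at 55.3 and 80.4 in the 48p libraries (difference -1.05, limma adjusted p = 0.0652). *Mllt3*, 1241.1 kb away, fell 2.17-fold in mean FPKM, from 13.0 and 12.2 to 6.34 and 5.29 (adjusted p = 0.0481), a call made in 4 of the 14 other fits. *Focad*, 863.5 kb away and named after its values were seen, had the other order, with 5.61 and 3.50, then 7.60 and 7.39 (0.64, adjusted p = 0.187). Over all 9 neighbours, tested or not, the libraries did not overlap for 2 with 48p-HFSCs higher and for 4 with 48p-HFSCs lower. Among the genes tested these shares were 31.7% and 34.3%. The higher ones include *Hacd4*, which was not tested and stood at 0.0778 and 0, then at 0.969 and 0.388. In the ARF and p53 list 0 of 7 genes were called by limma, and 0 had an unadjusted p-value under 0.05. Among all genes these shares were 19.9% and 37.4%. In this list 2 means were higher and 5 lower in 48p-HFSCs. *Mdm2*, named after its values were seen, stood at 55.5 and 56.9, then at 79.5 and 243 (1.29, limma adjusted p = 0.138). *Trp53* stood at 67.1 and 73.7, then at 53.8 and 48.7 (-0.45, adjusted p = 0.239).

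Among the E2F and DP factors and p130, 2 of 11 genes were called, both lower, beside 9.15% called lower and 19.9% called in either direction among all genes. *Tfdp1*, which encodes DP1, the partner through which E2F factors bind DNA, fell from 136 and 124 in 10p-HFSCs to 28.7 and 13.2 in 48p-HFSCs (difference -2.67, SE 0.39, limma adjusted p = 0.00814). *E2f8*, a repressor E2F, fell from 18.4 and 15.0 to 7.12 and 8.16 (-1.03, adjusted p = 0.0455), a call made in 5 of the 14 other fits. *E2f1* overlapped between groups, with 11.7 and 13.1, then 10.1 and 12.6. *Tfdp1* also lies on chromosome 8, whose part was not tested. The MuvB complex joins RB relatives and E2F to repress cell cycle genes. Of 7 genes of this complex and of its other partners, 1 was called, lower, beside 9.15% called lower among all genes. This was *Lin9* (11.6 and 8.27, then 3.85 and 1.24, difference -1.71, limma adjusted p = 0.0429), called in 8 of the 14 other fits as well. Without replicate 2 of 48p-HFSCs its difference was -1.15.

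The gene lists were chosen with earlier results of these data known, so an excess over the share of all genes is not an independent result. Of 20 E2F target genes, which make the replication machinery, 10 were called lower and 0 higher, beside 9.15% lower among all genes. Their median difference was -1.06, 19 of the 20 means were lower in 48p-HFSCs, and for 15 both 48p libraries were below both 10p libraries (34.3% of all genes). *Mcm4* and *Mcm5*, of the replicative helicase, fell from 59.4 and 34.2 to 10.4 and 7.05 (difference -2.27, limma adjusted p = 0.0106) and from 34.1 and 29.1 to 7.06 and 7.52 (-1.97, adjusted p = 0.00505). *Mcm7* (-1.56, adjusted p = 0.0186) and *Pola1*, of the primase complex (-1.48, adjusted p = 0.0280), also fell. *Mcm5*, like *Tfdp1*, lies on chromosome 8. The other 6 called were *Mcm2*, *Mcm3*, *Pcna*, *Cdc6*, *Cdc45* and *Tyms*. Without replicate 1 or replicate 2 of 10p-HFSCs, 0 of the 20 were called by limma, and with no filter on low values 4 were.

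The E and A cyclins with CDK2 gave 0 calls by limma in 5 tested of 6, with 1 unadjusted p-value under 0.05. Over all genes tested, 19.9% were called and 37.4% had an unadjusted p-value under 0.05, the background for this list and the next. In the 10 proliferation markers, which peak later in the cycle, 0 were called by limma, 2 had an unadjusted p-value under 0.05, and the median was -0.24. Their summed FPKM was 681 and 594 in the 10p and 437 and 989 in the 48p libraries, so the 48p libraries lay on both sides of the 10p libraries. In bulk RNA, fewer cells of a kind, such as cycling cells, and less RNA per cell cannot be told apart. From cell counts and uptake of the DNA label BrdU, the study reported that proliferation was kept or rose over long passage. How the RNA differences of these lists relate to those measures was not tested.

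**Figure D4:**
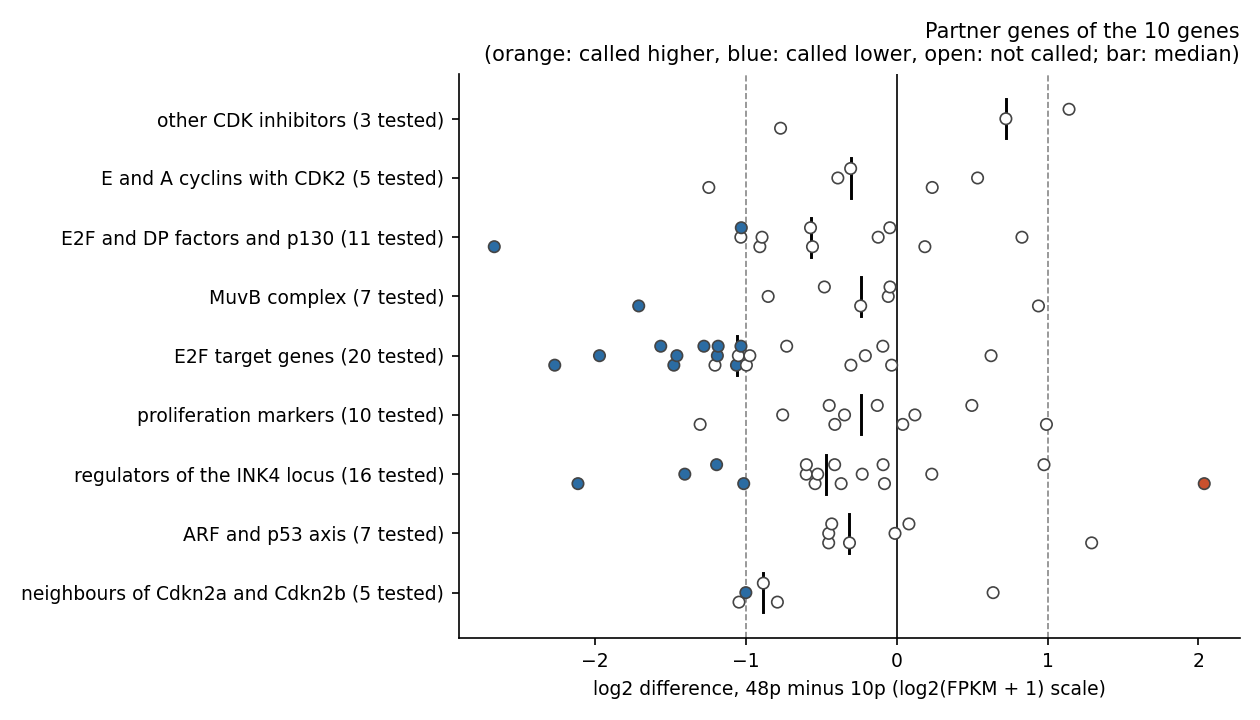
Difference of each tested gene (48p minus 10p on the log2(FPKM + 1) scale, horizontal axis) in the gene lists around the 10 genes, 1 row for each list, with orange for genes called higher, blue for genes called lower, open points for genes not called and a vertical tick at each list's median. In the E2F target row 10 of 20 points are called lower, with a median of -1.06.

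Markers of other cells moved with passage. The 9 fibroblast markers summed to 353 and 388 in the 10p and to 2.53 and 3.32 in the 48p libraries, nearly all of it *Vim* and *Col1a2*, and *Dcn*, *Lum* and *Thy1* were at 0 in all libraries. The 5 leukocyte markers summed to 0.641 and 0.694, then to 64.3 and 104, nearly all of it *Cd74*, and *Cd3e* and *Tyrobp* were at 0 in all libraries. Their part in the differences above was not tested. The 6 melanocyte markers summed to at most 11.9 and the 4 endothelial markers to at most 2.54 in any library. The 6 basal keratinocyte markers summed to 3654 and 3008, then to 12612 and 7940, nearly all of it *Krt5* and *Krt14*.

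**Figure D5:**
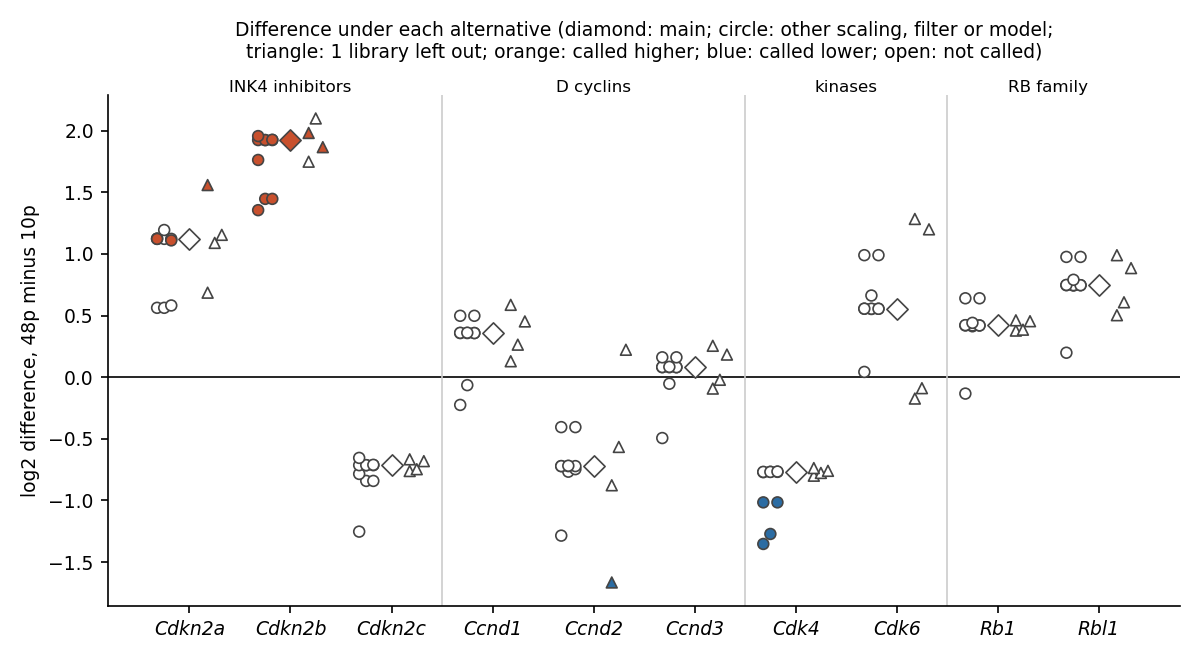
Difference of each of the 10 genes (48p minus 10p, log2 scale, vertical axis) in the reported fit (diamond), under other scalings, filters and models (circles) and with 1 library left out (triangles), with filled symbols where the gene was called. *Cdkn2b* stays between 1.36 and 2.10, and *Ccnd1*, *Ccnd2*, *Ccnd3*, *Cdk6* and *Rb1* have points on both sides of 0.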

How the data were processed

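RNA of 10p- and 48p-HFSCs (2 libraries each, grouped by the labelled passage number) was sequenced by the authors with a stranded mRNA kit. Reads were mapped to mm10 with TopHat 2.1.1 and Bowtie2, and the deposited FPKM, 1 value per gene symbol, were computed by the authors with the Cufflinks 2.2.1 tools. The methods and the submitters' processing notes differ on the versions of Bowtie2 (2.3.5.1 and 2.2.8) and SAMtools (1.2 and 0.1.18). The annotation and strand setting are not given in the sources used here. FPKM carry no read totals, so the absolute depth is unknown and no counting interval is given; relative depth came from the most common ratio of FPKM under 0.3. From these values log2(FPKM + 1) was computed, without further scaling, for the 11018 genes that reached an FPKM of 1 in 2 or more libraries. The 2 groups were tested with limma 3.58.1 under R 4.3.3 (variance trend, Benjamini-Hochberg adjustment over all genes tested), a fit that was also tested on simulated data. The text names the 10 genes, Mtap, Cdkn1a, Cdkn1b, Cdkn2d, Rbl2, E2f1 and Trp53, and up to 4 called genes of each of 12 gene lists by size of difference. Other genes of these lists named in the text (the other called E2F targets, Tcf3, Ezh2, Suz12, Id1, Cbx8, Pcgf2, Rnf2, Mdm2, Focad, Hacd4, Plaur, Hmgb2, Igfbp5, Il6 and Ambra1) were chosen after their values were seen. Members and lists were chosen with earlier results of these data known. Positions are from GENCODE on GRCm38, and promoter windows from RefSeq on GRCm38.p6. Alternatives were a pseudocount of 0.1, other filters, TPM, median-of-ratios and quantile scaling, a length and GC correction, a constant variance prior, other call limits, a replicate block and leaving out each library. The log2 ratio of mean FPKM and the INK4 to kinase ratio, with and without Cdkn2d and after quantile normalization, were added after the values were seen. Python 3.11.15 was used for other steps.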

Additional observations from a re-analysis of the deposited data

How the results depend on the processing

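Of the 14 other fits, Cdkn2b was called in 12 (1.36 to 2.10, adjusted p = 0.000171 to 0.185). None of the partner genes followed through these fits (Tfdp1, E2f8, Lin9, Mcm4, Mcm5, Mcm7, Pola1, Hmga2, Ets1, Bmi1, Cbx7, Mllt3, Cryab, Cul4a, Fbxw8, Gdf15, Il1a, Igfbp7 and Igfbp3) was called when either library of 10p-HFSCs was left out. The 10 genes gave 1 call higher and 0 lower. Higher calls numbered 2 after quantile normalization, with a replicate block and at an adjusted p under 0.1, and 0 to 2 with 1 library left out. Lower calls numbered 1 (Cdk4) after TPM rescaling, quantile normalization, a length and GC correction and that correction with the block, and 0 to 1 (Ccnd2) with 1 library left out. Over all genes, 1189 higher calls became 623 after TPM rescaling, which moved the median of all genes by -0.52, and 35 to 1936 with 1 library left out; 1008 lower calls became 637 with no filter and 140 to 1875. E2F target genes called lower (10) became 4 with no filter, 6 after TPM rescaling and 0 to 11 with 1 library left out, and those called higher (0) became 0 to 1; leaving out a library leaves 1 sample in a group, whose spread is assumed to be that of the other. Differences that changed sign after TPM rescaling were Ccnd1 (-0.22), Ccnd3 (-0.49) and Rb1 (-0.13), and after quantile normalization Ccnd1 (-0.064) and Ccnd3 (-0.053). With 1 library left out the differences ran from -1.67 to 0.22 for Ccnd2, -0.092 to 0.25 for Ccnd3 (-0.02 without replicate 1 of 10p-HFSCs), -0.17 to 1.28 for Cdk6 (-0.09 without replicate 2 of 10p-HFSCs) and -0.27 to 0.021 for E2f1. Shares of the family sum moved by -16.05 to 1.55 percentage points for Ccnd2, -2.31 to 0.0486 for Ccnd3 and -2.43 to 3.57 for Rb1 (-1.51 without replicate 1 of 48p-HFSCs), and the 3-gene INK4 to kinase ratio differed between groups by 0.443, by 0.405 to 0.482 with 1 library left out, by 0.564 with Cdkn2d, by 0.501 after quantile normalization and by 0.651 with both. TPM rescaling divides each library by its summed FPKM, which was 581516 and 719012 in the 10p and 666018 and 1414953 in the 48p libraries. Replicate 2 of 48p-HFSCs was thus scaled down the most. What lies behind that sum, and the cause of the other changes, was not tested. Same-numbered libraries deviated together (r = 0.408 across 11018 genes), but with 2 pairs they share only a number; with the replicate block there were 1613 higher and 1497 lower calls, and Cdkn2a was called (adjusted p = 0.0101). At 2 libraries a group, differences beyond a gene's own replicate spread could also go uncalled. For Cdk4 (difference -0.77) the replicates lay within 1.04-fold and 1.01-fold, yet its limma adjusted p-value was 0.170. Low values of replicate 2 of 48p-HFSCs are the least precise.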

Other observations

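Of 14 tested of 18 senescence-associated genes, limma called 4 higher and 3 lower with passage, beside 10.8% and 9.15% of all genes, with a median difference of 0.40. *Gdf15*, a stress-induced TGF-b family cytokine, stood at 0.0554 and 0.232 in the 10p and at 17.9 and 27.1 in the 48p libraries (difference 4.34, adjusted p = 0.0011). *Il1a*, an interleukin of stressed keratinocytes, rose from 1.49 and 1.77 to 20.5 and 30.2 (3.30, adjusted p = 0.00185). *Igfbp7*, a secreted binding protein, rose from 14.5 and 12.6 to 78.6 and 119 (2.75, adjusted p = 0.00299). *Igfbp3*, a member of the same family, fell from 411 and 418 to 26.8 and 18.5 (-4.16, adjusted p = 0.0011), so secreted factors of the list were called in both directions. *Plaur* was called higher, and *Hmgb2* and *Igfbp5* lower. *Hmgb2* lies on chromosome 8, whose 565 genes had a median of -0.57 relative to all genes, and the part of this was not tested. *Il6* stood at 0.332 and 0.231 in 10p-HFSCs, was listed at 0 in both 48p libraries, and was not tested.

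Of 10 genes of D cyclin turnover, 1 was called higher and 2 lower, beside 10.8% and 9.15% of all genes. *Cryab*, a small heat shock protein that joins an FBXO4 ligase for cyclin D1, rose from 1.24 and 0.916 to 16.5 and 21.1 (difference 3.25, limma adjusted p = 0.00158). *Cul4a*, a ligase scaffold, fell from 47.9 and 32.7 to 15.5 and 7.46 (-1.78, adjusted p = 0.0297), and *Fbxw8*, an F-box gene, from 17.9 and 17.9 to 7.30 and 7.85 (-1.14, adjusted p = 0.0283). *Cul4a* lies on chromosome 8, whose 565 genes had a median of -0.57 relative to all genes. The part of this in its value was not tested. *Ambra1*, whose ligase removes D cyclins, stood at 5.47 and 5.98, then at 9.98 and 9.94, and was not called (0.70, adjusted p = 0.109). Of 5 genes of CDK activation and assembly, 0 were called by limma and 2 had an unadjusted p-value under 0.05. Over all genes these shares were 19.9% and 37.4%.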
